A study of Mus musculus with 30 samples.

Results

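Retinas of mouse pups that received CD34+ cells in the vitreous at postnatal day 12 (P12) were compared with retinas of pups that received saline on the same day. The comparison took the 3 arrays labelled P12 CD34, without endothelial colony-forming cells (ECFC), and the 3 arrays labelled P12 saline, 6 of the 30 arrays in the series. Each array held RNA from 1 retina, and arrays were taken as separate pups. Both groups had oxygen-induced retinopathy (OIR): the pups had breathed 75% oxygen from P7 for 5 days and were then returned to room air. The CD34 pups received 10000 CD34+ cells, and the saline pups received the vehicle with no cells. Pups given 100000 ECFC or 110000 cells of both kinds at P12, pups given CD34+ cells or saline at P5, untreated OIR pups and normoxia pups served for context, with 3 arrays in each group. All 6 samples carry the stage label P17, although the protocol names P12 as well as P17 for euthanasia. The injected cells were human in the published study, although the labels do not state their species, and the arrays carry mouse probe sets.

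CD34+ cells are a population of blood progenitors, defined by a surface sialomucin, that has been studied for support of vessel repair. In OIR, high oxygen stops capillary growth and removes vessels from the central retina. On return to room air the avascular retina becomes hypoxic, stabilised HIF transcription factors raise Vegfa and glycolytic genes, tip cells sprout, and Müller glia become reactive. A change in vessel cover, oxygen supply or glial stress would be read in those gene groups.

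Retinal identity was clear on all 6 arrays: 12 markers of rods, cones, bipolar cells, Müller glia, amacrine cells and ganglion cells were measured, and the rod arrestin gene Sag averaged 14.28 on the log2 scale in CD34 retinas and 14.24 in saline retinas. One array in each group came from a female pup by Xist and 3 Y-linked genes. Hybridisation controls lay between 13.23 and 13.40 in CD34 retinas and between 13.25 and 13.48 in saline retinas. They were lower on untreated OIR arrays (12.44 to 12.52) and normoxia arrays (12.58 to 12.79). Levels set beside OIR and normoxia below therefore cross a difference in these controls. The interquartile range of all genes did not overlap between CD34 arrays, at 3.21 to 3.40, and saline arrays, at 3.41 to 3.46. Dim and bright genes differed accordingly. Among the 4131 dimmest genes 79.5% were higher in CD34 retinas, with a median log2 difference of 0.12, whereas among the 4131 brightest genes 52.5% were higher, with a median of 0.01. After quantile normalization those shares were 49.5% and 52.2%. Values after quantile normalization are therefore given below for the inflammatory and blood cell lists and for lists of tissues outside the retina. Transcripts that were not there, Xist in males and Y-linked genes in females, read between 3.61 and 5.70, and 1647 genes (13.3%) lay below that upper level in both groups.

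No gene differed between CD34 and saline retinas in limma's moderated test with Benjamini-Hochberg adjustment over 12393 genes: 0 genes (0.0%) passed an adjusted p of 0.05, and the smallest adjusted p was 0.854. With arrays weighted by their fit to the model, 413 genes passed, 341 higher and 72 lower. At an unadjusted p under 0.05 there were 643 genes, 501 higher (4.04%) and 142 lower (1.15%), where 5% of the genes tested, 620, would be so by chance. With limma's test fitted only to the arrays compared, 1826 genes had an unadjusted p under 0.05, well above that chance count. In that fit 0 genes passed and the smallest adjusted p was 0.187. The median difference over all genes was 0.05 log2 units, with 7761 genes higher and 4632 lower (37.4%). The 3 CD34 arrays lay wholly above the 3 saline arrays for 1735 genes (14.0%) and wholly below them for 834 genes (6.73%). The 95% interval of the difference stayed within 1 log2 unit of 0, a 2-fold change, for 11976 genes (96.6%), and within 0.5 log2 units for 8135 genes (65.6%). Differences over 1 log2 unit were found for 7 genes: Myh3, Cryba1, Crygf, Crygb and Crybb2 were on the higher side, and Hmox1 and Serpina3n on the lower side. All differences below are log2 values of CD34 minus saline ± SE, and since none passed the adjusted test they are given as values. Each SE and 95% interval, here and below, rests on 1 variance per gene shared by all groups of the series. They therefore do not give the spread of the CD34 and saline arrays alone. With bulk RNA, fewer cells of a type and less RNA per cell cannot be told apart.

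Genes that HIF induces in hypoxic tissue were a little lower in CD34 retinas. Of 21 measured HIF targets, 20 were lower and 1 was higher, with a median difference of -0.16 against 0.05 for all genes. None passed the adjusted test, and for none did the arrays of the groups lie apart. Promoters of the 3 list members with the smallest p-values among those with a window are printed, because ACGTG is the core of the hypoxia response element to which HIF binds. The windows are 300 bases around the gene start in the RefSeq annotation of GRCm38.p6 and are printed 5′ to 3′ on the strand of the gene, with each match to ACGTG on either strand in capitals. P4ha1 (a prolyl hydroxylase subunit of collagen synthesis) lies at chr10:59323046-59323345 on the plus strand, Slc16a3 (the lactate exporter MCT4) at chr11:120948817-120949116 on the plus strand, and Vegfa (the main growth factor for vessels) at chr17:46032328-46032627 on the minus strand.
P4ha1: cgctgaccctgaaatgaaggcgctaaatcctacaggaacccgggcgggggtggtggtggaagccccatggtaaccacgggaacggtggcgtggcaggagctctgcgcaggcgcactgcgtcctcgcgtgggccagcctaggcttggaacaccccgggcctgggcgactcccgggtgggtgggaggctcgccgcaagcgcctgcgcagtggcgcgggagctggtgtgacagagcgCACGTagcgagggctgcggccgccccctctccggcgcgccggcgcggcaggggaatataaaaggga
Slc16a3: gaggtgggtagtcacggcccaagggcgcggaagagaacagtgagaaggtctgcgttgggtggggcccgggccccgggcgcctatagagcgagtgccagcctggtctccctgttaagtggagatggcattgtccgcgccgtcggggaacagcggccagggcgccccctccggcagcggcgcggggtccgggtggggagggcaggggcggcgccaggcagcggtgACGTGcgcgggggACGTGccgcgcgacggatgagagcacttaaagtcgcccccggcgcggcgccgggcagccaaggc
Vegfa: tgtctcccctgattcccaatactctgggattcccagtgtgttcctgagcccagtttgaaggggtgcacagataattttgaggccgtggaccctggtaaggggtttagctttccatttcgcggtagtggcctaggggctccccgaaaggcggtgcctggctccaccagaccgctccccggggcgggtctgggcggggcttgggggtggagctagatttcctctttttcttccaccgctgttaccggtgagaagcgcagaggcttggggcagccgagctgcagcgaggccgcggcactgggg
The P4ha1 window held 1 match, the Slc16a3 window 2 and this Vegfa window 0. Over the list, 19 of 21 genes had 25 windows and 16 of those (64.0%) held ACGTG, against 19.6% of all 32851 promoter windows. The GC box GGGCGG was in 84.0% of the list's windows and in 35.7% of all windows, and the E-box CACGTG, which overlaps ACGTG, was in 8.0% and 7.15%. A match describes letters in a window and not a bound site. The list was drawn up as HIF targets, so its share of ACGTG says nothing about CD34 against saline retinas.

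P4ha1 differed by -0.21 ± 0.14 and Slc16a3 by -0.27 ± 0.21. Vegfa read 10.42, 10.74 and 10.91 in CD34 retinas, against 10.83, 10.82 and 11.12 in saline retinas. Replicate 1 of the CD34 group was the lowest of the 6 and the groups overlapped, with a difference of -0.23 ± 0.18 (95% interval -0.59 to 0.13, adjusted p 0.925). Without CD34 replicate 1 it was -0.10 and without saline replicate 3 it was -0.13. Untreated OIR retinas averaged 11.11 ± 0.19 for Vegfa and normoxia retinas 9.84 ± 0.21 (SD, n = 3 each), so both P12 groups stood nearer to OIR than to normoxia. Hybridisation controls of the P12 arrays were higher than those of the OIR and normoxia arrays. Adm, the vasodilator peptide adrenomedullin, read 7.53, 8.33 and 8.67 in CD34 retinas, against 8.21, 8.45 and 8.98 in saline retinas, a difference of -0.37 ± 0.39 that was -0.05 without CD34 replicate 1 and -0.15 without saline replicate 3. Bhlhe40, a HIF-induced repressor, differed by -0.28 ± 0.20. The member on the higher side was Car12, a membrane carbonic anhydrase, at 0.26 ± 0.46. The mean of the list was 9.74, 10.02 and 10.07 on the CD34 arrays, against 10.04, 9.98 and 10.25 on the saline arrays. Without replicate 1 of the CD34 group 16 of 21 members were lower and the median was -0.04, and without saline replicate 3 those values were 15 of 21 and -0.08. Skeletal muscle and lens transcripts, described further on, were higher on the CD34 arrays: with the muscle list mean as a covariate 12 of 21 HIF targets were lower (median -0.04), and with the lens list mean 17 of 21 (median -0.09).

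Glycolysis showed the same side with more separation between arrays. Of 16 measured glycolytic enzymes and glucose transporters 14 were lower, with a median of -0.11, and for 5 of them all CD34 arrays lay below all saline arrays, as they did for 6.73% of all genes. Hk1, the hexokinase that commits glucose to metabolism in neurons, read 11.34, 11.32 and 11.67 in CD34 retinas, against 12.01, 11.92 and 12.07 in saline retinas. Every CD34 array was below every saline array, with a difference of -0.56 ± 0.22 (95% interval -1.02 to -0.09, unadjusted p 0.020, adjusted p 0.924). A further Hk1 probe set differed by 0.15, in the opposite direction. Pfkp, the platelet-type phosphofructokinase, read 12.66, 12.67 and 12.90 in CD34 retinas, against 13.03, 12.87 and 13.11 in saline retinas, and overlapped by 1 array, with a difference of -0.26 ± 0.12 (unadjusted p 0.035). Pfkl, the liver-type enzyme of the same step, was separate and differed by -0.34 ± 0.18, and Hk2 by -0.23 ± 0.14. The CD34 list mean ran from 12.27 to 12.45, against 12.45 to 12.60 in saline retinas. With quantile normalization 14 of 16 members were again lower and the median was again -0.11. Without CD34 replicate 1 the median was -0.07 (12 of 16 lower), as it was without saline replicate 3 (14 of 16 lower), and with the muscle covariate it was -0.06 (13 of 16 lower).

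**Figure D1:**
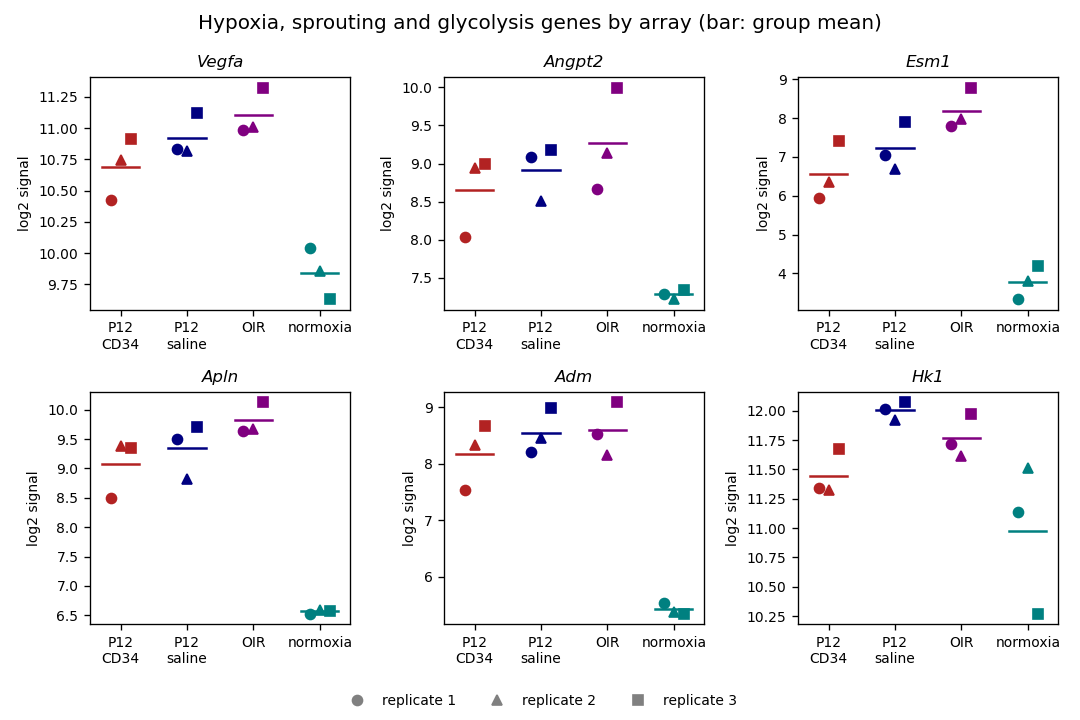
Log2 signal of 6 genes (y axis, 1 scale per panel) on the 3 arrays of P12 CD34, P12 saline, untreated OIR and normoxia retinas; symbols mark replicates and bars group means. Vegfa, Angpt2, Esm1, Apln and Adm overlapped between P12 CD34 and P12 saline and lay above all 3 normoxia arrays. All 3 CD34 arrays of Hk1 lay below the saline arrays.

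Sprouting genes varied as much within the groups as between them. Among 18 tip cell genes 13 were lower and 5 higher, with a median of -0.11. Esm1, the tip cell proteoglycan endocan, read 5.93, 6.35 and 7.41 in CD34 retinas, against 7.05, 6.70 and 7.91 in saline retinas. It differed by -0.66 ± 0.48 (95% interval -1.64 to 0.33), and by -0.34 without CD34 replicate 1 and -0.31 without saline replicate 3. Untreated OIR retinas read 7.79, 7.97 and 8.78 for Esm1, and all 3 normoxia arrays lay below 5.70, where transcripts that were not there also read. Angpt2, the ligand that loosens the endothelial Tie2 contact, read 8.03, 8.95 and 8.99 in CD34 retinas, against 9.08, 8.50 and 9.17 in saline retinas, and differed by -0.26 ± 0.31, which was 0.05 without CD34 replicate 1. Apln, the tip cell peptide apelin, was at 8.49, 9.39 and 9.36 in CD34 retinas and at 9.50, 8.81 and 9.71 in saline retinas. The groups overlapped for all of these, and replicate 1 of the CD34 group was the lowest array for each. Aplnr, the apelin receptor, was the exception in direction, at 11.25, 11.15 and 11.04 in CD34 retinas, against 10.67, 11.01 and 10.43 in saline retinas, a separate difference of 0.44 ± 0.26, although its other probe set differed by -0.02. Without replicate 1 of the CD34 group 8 of the 18 tip cell genes were lower and the median was 0.03. The median was -0.05 without saline replicate 3 and -0.19 without CD34 replicate 3.

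Endothelial and mural cell genes stood close to saline. Of 21 endothelial genes 11 were higher and 10 lower (median 0.00), while with the muscle covariate 17 of 21 were lower (median -0.23). Of 18 pericyte and mural genes 10 were higher and 8 lower (median 0.01). Cdh5, the cadherin of endothelial junctions, read 9.08, 9.23 and 9.45 in CD34 retinas, against 9.56, 9.66 and 9.45 in saline retinas, and was lower by the narrowest margin on every array, at -0.31 ± 0.19. Pecam1, a junctional adhesion molecule, differed by -0.11 ± 0.17, the receptor kinase Tie1 by -0.37 ± 0.21, and Plvap, a protein of fenestrated and leaky endothelium, by 0.25 ± 0.17. The receptor of Vegfa, Kdr, was separate at -0.26 ± 0.16, within a VEGF list in which 6 of 10 members were lower (median -0.09, and -0.02 without CD34 replicate 1, -0.17 without CD34 replicate 2 and -0.04 without saline replicate 1). Pdgfb, the endothelial ligand that recruits pericytes, differed by 0.14 ± 0.17, with a second probe set at -0.23, and its receptor Pdgfrb by -0.03 ± 0.17, with a second probe set at 0.09. Rgs5 read 12.60, 12.51 and 12.54 in CD34 retinas, against 12.54, 12.54 and 12.71 in saline retinas, so the groups overlapped for this abundant pericyte gene (-0.04 ± 0.16, 95% interval -0.38 to 0.30). The pericyte proteoglycan Cspg4 differed by 0.00 ± 0.18, with a second probe set at 0.22. Of 25 basement membrane and matrix genes 16 were lower (median -0.11, and -0.05 without CD34 replicate 1 or 2 and -0.04 without saline replicate 3), with the stromal proteoglycan Dcn separate on the higher side at 0.68 ± 0.50. Of 26 genes of angiopoietin, Notch, Norrin and TGF-beta signalling 13 were higher and 13 lower (median -0.02). Of 29 cell cycle genes 22 were lower, with a median of -0.11, among them the replication helicase subunit Mcm5 at -0.29 ± 0.14. Without saline replicate 2 the cell cycle list was split, with 15 lower and 14 higher (median -0.03), and without CD34 replicate 1 it had 17 lower and 12 higher (median -0.04).

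The genes that distinguished untreated OIR from normoxia were followed in CD34 retinas, using OIR and normoxia arrays that the comparison did not share. Untreated OIR differed from normoxia in 565 genes (4.56%), 445 higher (3.59%) and 120 lower (0.968%) at an adjusted p under 0.05. Of the 445 genes higher in OIR, 322 (72.4%) were lower in CD34 than in saline retinas, against 37.4% of all genes, and their median was -0.09. For 43 of them the arrays of the groups did not overlap on the lower side (6.73% of all genes) and for 11 on the higher side (14.0% of all genes). Of the 120 genes lower in OIR, 102 (85.0%) were higher in CD34 retinas, against 62.6% of all genes, with a median of 0.12, and 36 were separate on the higher side and 0 on the lower side. The highest difference among the 120 was that of the skeletal muscle regulator Myf6 at 0.74, so the list also held transcripts from outside the retina. These shifts were small beside the OIR medians of 0.85 and -0.55. The array means of the 445 genes were 8.50, 8.71 and 8.85 in CD34 retinas, against 8.67, 8.80 and 8.89 in saline retinas, which overlap. Without replicate 1 of the CD34 group 228 of 445 were lower (median -0.01), whereas 101 of the 120 were higher (median 0.14). Without saline replicate 3 the lower count was 275 of 445 (median -0.04). With quantile normalization the counts were 363 of 445 lower and 90 of 120 higher. With the muscle list mean as a covariate they were 275 of 445 (median -0.06) and 87 of 120 (median 0.08). The mean of the 445 genes was 8.78 after saline, 8.69 after CD34+ cells, 8.50 after ECFC and 8.56 after ECFC with CD34+ cells. For the 120 genes it was 8.70, 8.84, 8.91 and 8.77 in that order, so the other P12 treatments stood on the same side of saline.

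Reactive glial genes had the list median furthest from 0, and their arrays were widely spread in both groups. Of 25 measured genes of gliosis and retinal stress 24 were lower in CD34 retinas, with a median of -0.41, and with none separate on the lower side. Gfap, the intermediate filament of astrocytes and reactive Müller cells, read 9.50, 9.26 and 10.88 in CD34 retinas, against 10.45, 11.03 and 11.08 in saline retinas. The third CD34 replicate lay among the saline arrays, and the difference of -0.97 ± 0.72 had a 95% interval of -2.46 to 0.52. Serpina3n, a protease inhibitor of reactive glia, read 7.63, 7.30 and 9.38 in CD34 retinas, against 7.74, 9.79 and 9.86 in saline retinas, and Hmox1, the haem oxygenase of the oxidative stress response, read 8.70, 8.32 and 10.95 in CD34 retinas, against 8.99, 11.28 and 11.08 in saline retinas. Edn2, the endothelin of stressed photoreceptors, followed at 7.81, 7.31 and 9.58 in CD34 retinas, against 8.18, 9.63 and 9.70 in saline retinas. For these 3 genes CD34 replicates 1 and 2 and saline replicate 1 were low, and CD34 replicate 3 and saline replicates 2 and 3 were high. Serpina3n differed by -1.03 ± 0.96, Hmox1 by -1.13 ± 0.99, Edn2 by -0.94 ± 1.28 and the survival factor Fgf2 by -0.81 ± 0.79. Stat3, a transcription factor downstream of cytokines, differed by -0.48 ± 0.35, with a probe set of opposite sign at 0.18, and the membrane-binding Anxa2 by -0.51 ± 0.31. The 3 Anxa2 probe sets ran from -0.51 to -0.004. Lcn2, an acute phase carrier, differed by -0.57 ± 1.13. Untreated OIR showed a like spread, with Gfap at 9.17, 9.55 and 11.27. The list mean was 8.94, 9.13 and 9.84 in CD34 retinas, against 9.19, 9.89 and 10.04 in saline retinas. Without replicate 1 of the CD34 group 19 of 25 were lower (median -0.24), as they were without saline replicate 3 (median -0.26). Without CD34 replicate 3 or saline replicate 1 the count was 24 (medians -0.67 and -0.65). With the muscle list mean as a covariate 12 members were lower and 13 higher, with a median of 0.01, and with the lens list mean 23 were lower (median -0.35). The member on the higher side was Mt3, the brain metallothionein, at 8.72, 8.43 and 8.41 in CD34 retinas, against 8.11, 7.96 and 8.11 in saline retinas. All its CD34 arrays were above all its saline arrays, at 0.46 ± 0.25. Resting Müller glia genes stood close to saline, with 11 of 19 higher and a median of 0.03.

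**Figure D2:**
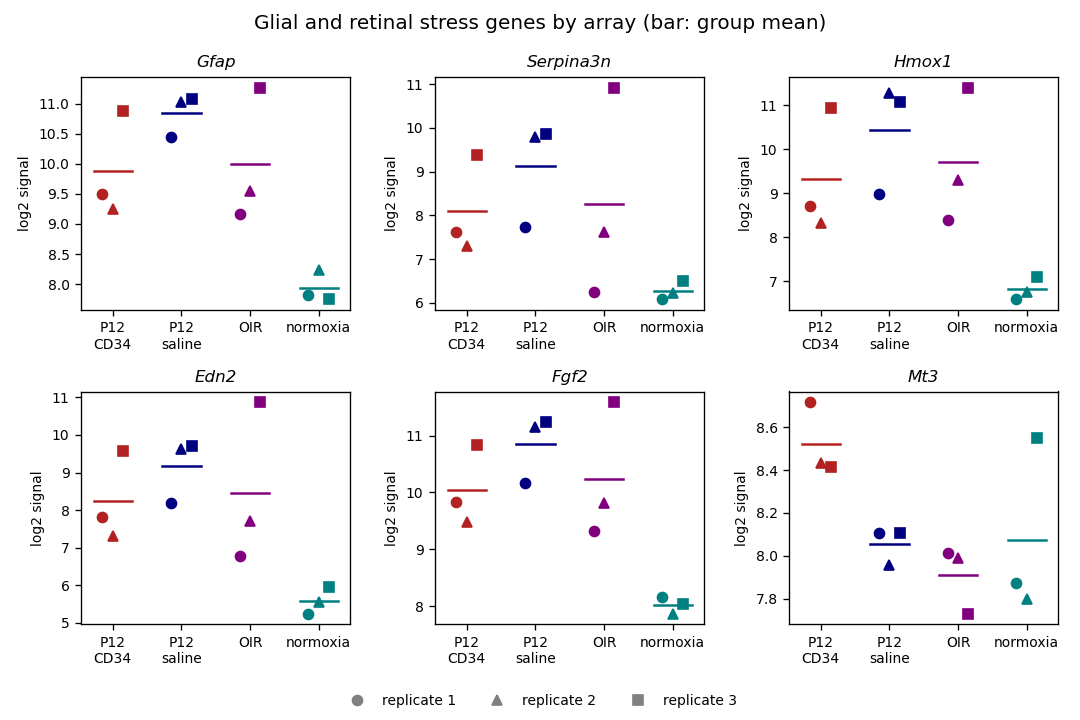
Log2 signal of 6 glial and retinal stress genes (y axis, 1 scale per panel) on the 3 arrays of P12 CD34, P12 saline, untreated OIR and normoxia retinas; symbols mark replicates and bars group means. Replicates 1 and 2 of P12 CD34 and replicate 1 of P12 saline lay low for Serpina3n, Hmox1 and Edn2, while Mt3 was higher on all CD34 arrays.

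Microglia, complement and cytokine genes were split in direction as deposited and leaned lower after quantile normalization, while other inflammatory lists differed. Of 20 microglia and macrophage genes 9 were higher and 11 lower (median -0.01), and after quantile normalization 5 were higher and 15 lower (median -0.08). With the muscle list mean as a covariate all 20 were higher (median 0.48). Cx3cr1, the fractalkine receptor of microglia, read 7.40, 7.50 and 7.58 in CD34 retinas, against 7.50, 7.64 and 7.83 in saline retinas (-0.16 ± 0.23), with a second probe set at 0.09. The growth factor receptor Csf1r differed by 0.24 ± 0.30 and the homeostatic marker Tmem119 by 0.27 ± 0.23. Complement was split 7 to 7 (median 0.02), and after quantile normalization 4 were higher and 10 lower (median -0.08). Of 22 chemokines and cytokines 12 were higher (median 0.02), and after quantile normalization 7 were higher and 15 lower (median -0.05). Of 22 interferon response genes 16 were higher (median 0.05), a share of 72.7% against 62.6% of all genes, and with quantile normalization 11 were higher and 11 lower. The interferon median was -0.03 without CD34 replicate 3 and -0.05 without saline replicate 1. Of 19 lysosomal and lipid-associated phagocyte genes 13 were lower (median -0.05), and 15 after quantile normalization (median -0.10). Of 13 antigen presentation genes 9 were higher (median 0.09), and after quantile normalization 6 were higher and 7 lower (median -0.02). Neutrophil genes were higher for 12 of 13 (median 0.19) and lymphocyte genes for 13 of 14 (median 0.20). These are dim genes: Elane, neutrophil elastase, read 5.23, 5.11 and 5.15 in CD34 retinas, against 4.81, 4.69 and 4.92 in saline retinas, within the range of transcripts that were not there. After quantile normalization the medians of both lists were 0.05 and 0.09. Of 13 haematopoietic progenitor genes 9 were higher (median 0.07), and after quantile normalization 7 were higher and 6 lower (median 0.01). The mouse Cd34 probe set read 8.33, 8.65 and 8.97 in CD34 retinas, against 8.65, 8.80 and 8.98 in saline retinas (-0.16 ± 0.28). Whether human transcripts bind it was not tested.

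Neuronal genes stood close to saline. Among 23 rod genes 16 were lower and 7 higher, with a median of -0.01 and a range of -0.13 to 0.07, the narrowest of the lists in the plot of list medians. Pde6a, a subunit of the rod phosphodiesterase, differed by -0.13 ± 0.11. Of 12 cone genes 8 were higher (median 0.09), among them Pde6h, the cone phosphodiesterase inhibitor, at 12.47, 12.45 and 12.42 in CD34 retinas, against 12.19, 12.32 and 12.26 in saline retinas (0.19 ± 0.11). Bipolar genes were higher for 10 of 15 (median 0.07), amacrine genes for 10 of 17 (median 0.07, and -0.02 after quantile normalization) and synaptic vesicle genes for 9 of 17 (median 0.03). Stx1a, a syntaxin of the release machinery, was separate at 0.51 ± 0.21 (unadjusted p 0.020), with a second probe set at 0.08. Retinal ganglion cell genes were higher for 15 of 16, with a median of 0.10, and 12 of 16 were higher with quantile normalization (median 0.09). Without CD34 replicate 2 the ganglion cell median was 0.06 (12 of 16 higher) and without saline replicate 3 it was 0.07 (13 of 16). With the muscle list mean as a covariate 14 of 16 were lower (median -0.12), and with the lens list mean 9 were higher and 7 lower (median 0.05). Of 22 respiratory chain and ATP synthase genes 19 were higher (median 0.07), or 86.4% against 62.6% of all genes, and 4 reached an unadjusted p under 0.05 on the higher side, as did 4.04% of all genes. Ndufb8, a complex I subunit, read 12.14, 12.20 and 12.14 in CD34 retinas, against 11.74, 12.04 and 11.97 in saline retinas. Every CD34 array was above the saline arrays, at 0.24 ± 0.08 (unadjusted p 0.005). The other 3 were the complex IV subunit Cox7a2 (0.20 ± 0.08), the complex I subunit Ndufs4 (0.18 ± 0.08, with probe sets that differed in sign) and the complex III core protein Uqcrc2 (0.22 ± 0.10). After quantile normalization 19 of 22 were again higher (median 0.08). Of 19 immediate early genes 12 were lower (median -0.08), and 10 without CD34 replicate 1 or saline replicate 3 (medians -0.01 and -0.03). Nr4a2, a nuclear receptor of that group, went the other way at 8.42, 8.50 and 8.43 in CD34 retinas, against 7.91 to 8.19 in saline retinas (0.42 ± 0.15), with probe sets that differed in sign.

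**Figure D3:**
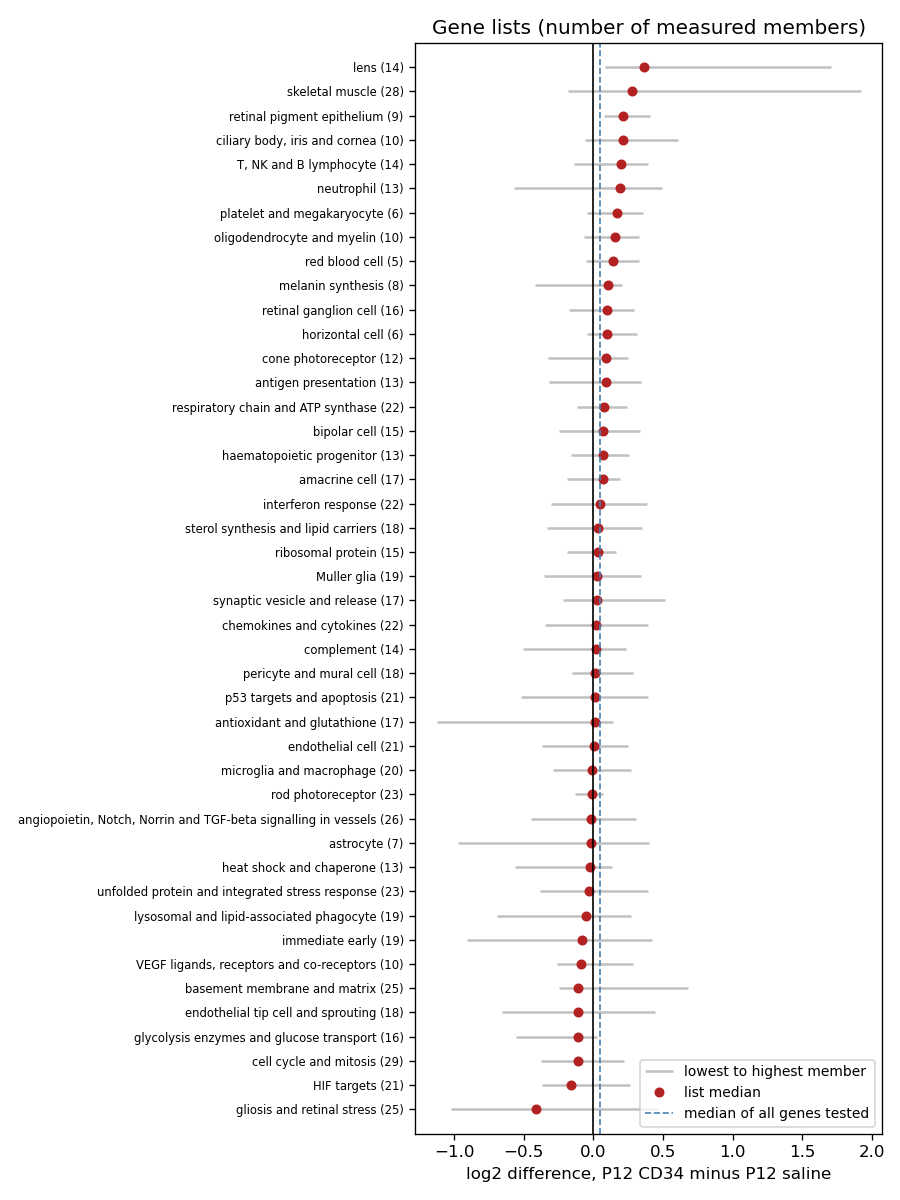
Median log2 difference, P12 CD34 minus P12 saline (x axis), of 44 gene lists (rows, with the number of measured members); grey lines run from the lowest to the highest member and the dashed line is the median of all 12393 genes. Gliosis stood lowest at -0.41 and lens and skeletal muscle highest at 0.36 and 0.28.

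Genes with the smallest p-values and separate arrays came from varied cell functions. On the higher side Emc4, a subunit of the membrane protein insertion complex of the endoplasmic reticulum, read 11.22, 11.25 and 10.99 in CD34 retinas, against 10.77, 10.75 and 10.57 in saline retinas (0.46 ± 0.11, unadjusted p 0.000351, adjusted p 0.854). Its second probe set differed by -0.03. Nabp2, a single-stranded DNA binding protein of DNA repair, read 10.08, 10.15 and 10.09 in CD34 retinas, against 9.70, 9.85 and 9.80 in saline retinas (0.32 ± 0.08). Atp5l, subunit g of ATP synthase, differed by 0.40 ± 0.10, Btbd2 by 0.30 ± 0.07 and the adhesion molecule Nectin4 by 0.74 ± 0.19. Of the 12 higher genes so chosen, the saline mean of 5 lay below the upper level of transcripts that were not there, and for 3 (Klb, 2310057N15Rik and 1700029P11Rik) both means did. On the lower side, none of 12 lay in that range. Zfp869, a zinc finger gene, read 8.94, 9.06 and 9.03 in CD34 retinas, against 9.56, 9.43 and 9.38 in saline retinas (-0.44 ± 0.12, unadjusted p 0.002, adjusted p 0.924). Cdc27, a subunit of the anaphase-promoting complex, averaged 8.66 ± 0.11 in CD34 retinas and 9.06 ± 0.05 in saline retinas (SD, n = 3 each; -0.40 ± 0.12). B4galt5, a galactosyltransferase of glycosphingolipid synthesis, was the widest of these at -0.64 ± 0.21. The ubiquitin ligase Arih1 differed by -0.39 ± 0.12, the lipid transfer protein Pitpnb by -0.35 ± 0.10, and the casein kinase subunit Csnk2a1 by -0.36 ± 0.12. Abi1, of the actin-nucleating WAVE complex, differed by -0.38 ± 0.11, with 2 of its 4 probe sets on the higher side.

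Transcripts of skeletal muscle and lens, tissues that lie outside the retina, were higher on CD34 arrays than on saline arrays. Myh3, the embryonic myosin heavy chain, had the smallest p of all genes and read 6.14, 8.55 and 8.41 in CD34 retinas, against 5.73, 5.81 and 5.80 in saline retinas. All CD34 arrays were above the saline arrays, replicate 1 by the least, and the difference was 1.92 ± 0.41 (95% interval 1.07 to 2.77, unadjusted p 9.74e-05, adjusted p 0.854). Without CD34 replicate 1 the difference was 2.70 and Myh3 passed alone, with an adjusted p of 4.59e-05, while its adjusted p was 0.767 or more without any other single array of this comparison. The muscle regulator Myf6 differed by 0.74 ± 0.17. Myl1, a fast myosin light chain, read 6.07, 6.58 and 7.23 in CD34 retinas, against 5.65, 5.60 and 5.70 in saline retinas, and the troponin Tnnc2 read 6.72, 7.14 and 7.82 in CD34 retinas, against 6.41, 6.60 and 6.12 in saline retinas. A list of 28 muscle genes, drawn up after Myh3 was seen, had 21 members higher (median 0.28) and 13 separate on the higher side, as were 14.0% of all genes. With dim genes left out 6 members remained, 4 of them lower (median -0.04). The mean of the whole list was 6.39, 6.49 and 6.61 in CD34 retinas, against 6.17, 6.19 and 6.15 in saline retinas, while the defining genes Ckm (0.04) and Mylpf (-0.04) stood near 0. All 14 measured lens genes were higher, with a median of 0.36. Cryba1, a beta crystallin, read 8.33, 8.30 and 6.35 in CD34 retinas, against 5.84, 6.12 and 5.89 in saline retinas, and the gamma crystallin Crygf read 7.56, 6.87 and 5.35 in CD34 retinas, against 4.91, 5.03 and 4.95 in saline retinas. The lens mean was 7.03, 6.84 and 6.38 in CD34 retinas, against 6.26, 6.06 and 6.15 in saline retinas, so CD34 replicate 1 had the most lens and the least muscle signal of its group. Both lists also stood above saline after the other P12 treatments. The muscle mean was 6.17 after saline, 6.50 after CD34+ cells, 6.43 after ECFC and 6.37 after ECFC with CD34+ cells. The lens mean was 6.16, 6.75, 6.61 and 6.66 in that order. ECFC replicate 2 read 6.63 for muscle and 7.10 for lens. Pigment epithelium genes were higher for 9 of 9 (median 0.22), with array means of the list that overlapped, at 8.76 ± 0.25 in CD34 retinas and 8.52 ± 0.24 in saline retinas (SD, n = 3 each), and corneal, iris and ciliary body genes for 9 of 10 (median 0.21). The pigment epithelium median was 0.05 without CD34 replicate 2 (6 of 9 higher), 0.06 without saline replicate 3 and 0.35 to 0.39 without CD34 replicate 3 or saline replicate 1. After quantile normalization 12 of 14 lens genes were higher (median 0.29), as were 18 of 28 muscle genes (0.16), 8 of 9 pigment epithelium genes (0.21) and 8 of 10 corneal, iris and ciliary body genes (0.12). With the muscle list mean as a covariate Vegfa differed by -0.06 and Hk1 by -0.29, and with the lens list mean Vegfa differed by -0.19 and Hk1 by -0.51. The slope of each covariate was shared by all 30 arrays, so it was not the slope on these 6 arrays. Muscle means ran from 6.04 to 7.12 on P5 CD34 arrays and from 6.15 to 6.61 on these 6 arrays. Values with a covariate are therefore no check of muscle or lens signal on these 6 arrays. Because the muscle means of CD34 and saline retinas did not overlap, muscle signal and treatment cannot be told apart on these 6 arrays.

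**Figure D4:**
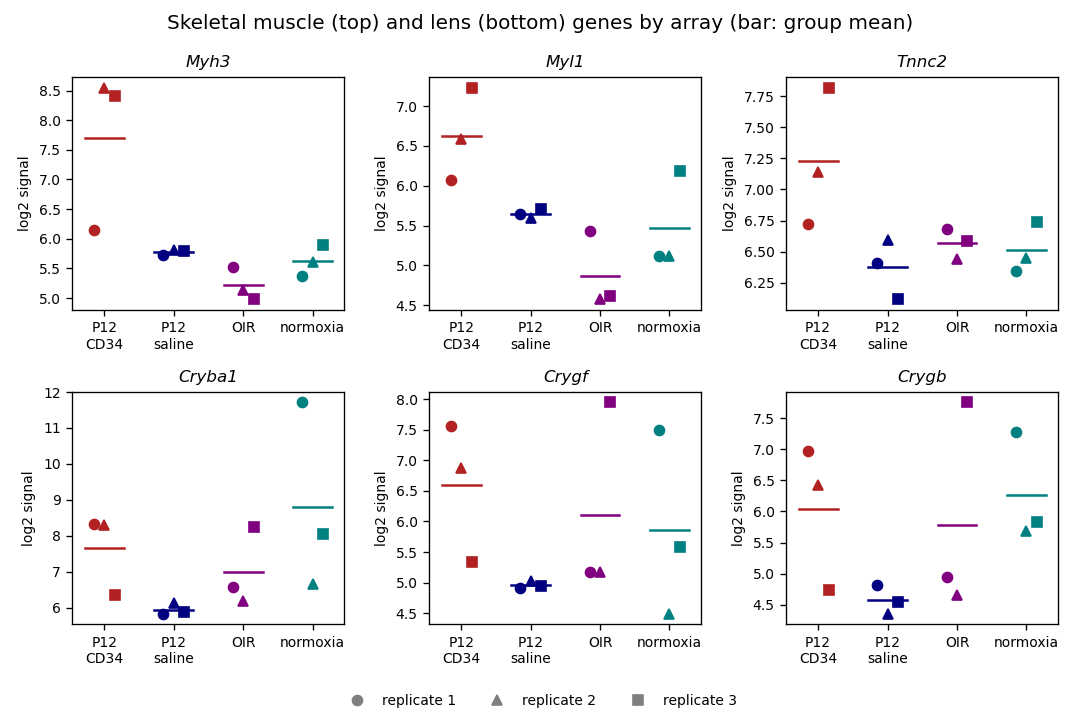
Log2 signal of 3 skeletal muscle genes (top) and 3 lens genes (bottom) on the 3 arrays of P12 CD34, P12 saline, untreated OIR and normoxia retinas; symbols mark replicates and bars group means. Myh3 was high in CD34 replicates 2 and 3, and the crystallins were high in CD34 replicates 1 and 2, while the saline arrays lay together.

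CD34+ cells were next set against the other cell treatments of the same day. Against P12 ECFC, 0 of 12393 genes (0.0%) passed limma's adjusted test, with 464 at an unadjusted p under 0.05, and the 95% interval stayed within 1 log2 unit for 96.4% of genes. The smallest p-values were those of Col19a1, a collagen of the nervous system (-0.57 ± 0.13), Myl4, a myosin light chain (0.61 ± 0.16), and the sulfotransferase Sult2b1 (-0.41 ± 0.11). Against the combination of ECFC and CD34+ cells the count was also 0 (0.0%), with 561 at an unadjusted p under 0.05 and intervals within 1 log2 unit for 97.0% of genes. The smallest p-values belonged to Twf2, an actin-binding twinfilin (0.56 ± 0.12), the phosphatase subunit Ppp2r1b (0.39 ± 0.09) and the adhesion protein Trip6 (0.35 ± 0.09). With array weights 831 genes passed against ECFC and 8 against the combination. The doses differed, with 10000 CD34+ cells against 100000 ECFC and 110000 cells in the combination, and no dose was matched. Since each treatment was set against the same 3 saline arrays, their differences from saline share those arrays and are given side by side only. Vegfa differed from saline by -0.23 after CD34+ cells, by -0.45 after ECFC and by -0.33 after the combination. Gfap differed by -0.97, -1.65 and -1.23 in that order, Hk1 by -0.56, -0.71 and -0.44, Angpt2 by -0.26, -0.80 and -0.45, and Mt3 by 0.46, 0.61 and 0.56. Myh3 differed by 1.92, 0.57 and 0.42. Between CD34 and ECFC retinas Vegfa differed by 0.22 (95% interval -0.15 to 0.58) and Gfap by 0.68 (-0.81 to 2.17).

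The response to CD34+ cells depended on the injection day in 235 genes (1.9%) by the test of the P12 difference minus the P5 difference, 185 higher (1.49%) and 50 lower (0.403%). Most of the contrast came from the P5 arrays, where CD34 and saline retinas differed in 1049 genes (8.46%), 380 higher (3.07%) and 669 lower (5.4%). Of the 235 genes 219 passed at P5 and 0 at P12, and the median size of their differences was 0.18 at P12 and 0.70 at P5. Gpnmb, a glycoprotein of lipid-laden phagocytes and pigment cells, read 7.07, 7.22 and 7.15 in P12 CD34 retinas, against 7.17, 7.25 and 7.35 in P12 saline retinas. At P5 it read 12.63, 10.52 and 10.28 in CD34 retinas, against 7.66, 9.45 and 7.58 in saline retinas. It was level at P12 (-0.11 ± 0.53) and higher at P5 (2.91 ± 0.53), and the day contrast was -3.02 ± 0.75 (adjusted p 0.041). Synpo, an actin-associated protein (-2.36, with P12 differences of opposite sign in its 2 probe sets), the membrane protein Emp1 (-2.31), Cox8b, a complex IV subunit of muscle and fat (-2.11), and Mgst1, a glutathione transferase (-1.95), had the next negative contrasts. The 2 Mgst1 probe sets also differed in sign at P12, at -0.14 and 0.14. Ganglion cell genes stood level or slightly higher at P12 and lower at P5: of 16 measured, 14 passed on the lower side at P5 and 0 at P12, with list medians of 0.10 at P12 and -1.08 at P5. The day contrast itself passed for 2 of the 16, Stmn2, a neuronal microtubule regulator (1.53 ± 0.39, adjusted p 0.046), and the RNA-binding marker Rbpms (1.31 ± 0.34, adjusted p 0.049). The P12 differences of the 4 Rbpms probe sets ran from -0.15 to 0.26. Stmn2 read 10.81, 10.95 and 10.98 in P12 CD34 retinas, against 10.78, 10.78 and 10.74 in P12 saline retinas, and 9.02, 10.56 and 9.40 in P5 CD34 retinas, against 10.70, 11.27 and 11.16 in P5 saline retinas. Kcnd2, a potassium channel subunit (1.77), and the sodium channel gene Scn11a (1.78) were also among the positive contrasts, with Fkbp1b, a regulator of calcium release channels (1.84), and Myh3 (2.39). Nr4a2 differed by 0.42 ± 0.15 at P12 and by -0.78 ± 0.15 at P5, with a day contrast of 1.20 ± 0.21 (adjusted p 0.013). Among stress genes of the endoplasmic reticulum the contrast passed for Hspa5, Xbp1 and Pdia6, which differed by -0.01, -0.09 and -0.03 at P12 and by 0.50, 0.71 and 0.88 at P5, where all passed. The P5 arrays carried far more lens signal, with list means of 7.24 to 13.69 after CD34+ cells and 10.31 to 13.31 after saline, and if the P5 retinas were collected at P12 the injection day and the collection day cannot be told apart. With array weights 1890 genes passed. With the model fitted to these 12 arrays alone 0 genes passed the day contrast, with 1842 at an unadjusted p under 0.05, and the count without a single array ran from 13 to 766. It was 107, 22 and 28 without P12 CD34 replicates 1, 2 and 3, and 74, 43 and 13 without P12 saline replicates 1, 2 and 3. It was 128, 766 and 142 without P5 CD34 replicates 1, 2 and 3, and 215, 142 and 36 without P5 saline replicates 1, 2 and 3. Median centring gave 144 higher and 83 lower, and quantile normalization 203 and 89.

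**Figure D5:**
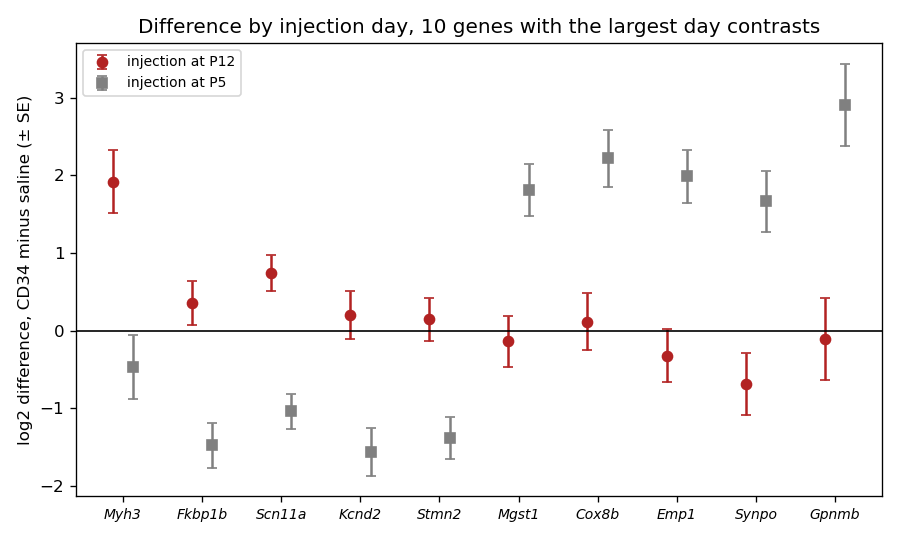
Log2 difference ± SE, CD34 minus saline (y axis), after injection at P12 (circles) and at P5 (squares) for the 5 genes with the largest contrasts in each direction among those that passed. Gpnmb, Synpo, Emp1, Cox8b and Mgst1 stood near or below 0 at P12 and above it at P5, and Fkbp1b, Scn11a, Kcnd2 and Stmn2 stood below 0 at P5.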

How the data were processed

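Total RNA (100 ng) of single mouse retinas was measured on Affymetrix arrays with 22690 probe sets. The deposited values are log2 signals, 1 per probe set and array, made by the authors with Partek, per the submitters' processing notes. How they were summarised and normalized is not given in the sources used here; no further scaling was applied. Probe sets with 1 symbol in the platform annotation (20380) were kept, the one with the highest mean over 30 arrays for each of 12393 genes. limma 3.58.1 in R 4.3.3 fitted all 30 arrays with a mean for each of 10 groups, which leaves 20 residual degrees of freedom, with eBayes and two-sided Benjamini-Hochberg adjusted p-values over all genes, called at an adjusted p under 0.05. Arrays were taken as separate pups, 3 per group, which limits the precision. The fit was tested on simulated data.

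The comparison, 43 gene lists (672 of 771 members measured) and the genes were chosen with earlier results of these data known. Named were 12 genes per direction with separate arrays and the smallest p, up to 4 members per list by moderated t, a fixed set of vessel and glial genes, and the largest day contrasts. Chosen after their values were seen were the muscle list and its members, Serpina3n, Hmox1, Edn2, Fgf2, Crygf, Car12, list members whose day contrast passed and the lists' other single members in the minority direction. The alternatives were other scalings, all probe sets, dim genes left out, other eBayes settings, array weights, a replicate block, fewer arrays and covariates. Equal replicate numbers did not pair arrays: deviations of same-numbered CD34 and saline arrays correlated from -0.06 to 0.28. Promoters came from RefSeq (GRCm38.p6).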

Additional observations from a re-analysis of the deposited data

Results flagged for a closer look

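In the fit to all arrays, the CD34 minus saline difference depended on the injection day in 235 genes, by a test between days. Among the genes named for it, the P12 minus P5 contrast was 2.39 for Myh3, 1.84 for Fkbp1b, 1.78 for Scn11a, 1.77 for Kcnd2 and 1.53 for Stmn2. On the negative side it was -3.02 for Gpnmb, -2.36 for Synpo, -2.31 for Emp1, -2.11 for Cox8b and -1.95 for Mgst1. Groups of 3 arrays are too small for a test of single outlying arrays. With the model fitted to the P12 and P5 CD34 and saline arrays alone, 0 genes passed the day contrast. Leaving out single arrays gave counts from 13 to 766. If the P5 retinas were collected at P12, the injection day and the collection day cannot be told apart.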

How the results depend on the processing

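The count of 0 changed genes between P12 CD34 and P12 saline retinas was also 0 with quantile normalization, median centring, all probe sets, dim genes left out, and trend and robust settings. It was 0 with only the 6 arrays (1826 genes at an unadjusted p under 0.05) and with the replicate block (703 genes). The count was also 0 with the covariates for the lens and muscle list means, which were chosen after seeing the data. With array weights it was 413 (341 higher and 72 lower), with CD34 replicate 1 weighted 0.664 and replicates 2 and 3 weighted 2.05 and 2.06. Leaving out single arrays gave 0 to 1, the 1 being Myh3 without CD34 replicate 1. Against P12 ECFC array weights gave 831 genes and against the combination 8, the replicate block gave 0 in both, and leaving out arrays gave 0 to 1. The day contrast gave 235 genes, 253 with the replicate block, 1890 with array weights, 0 with only the 12 arrays compared and 13 to 766 without single arrays. Replicate numbers share no source in the labels, and the block changed no other call. Of 217 named genes, 37 turned sign under at least 1 alternative without passing the test, and 33 passed with array weights. Precision is limited by 3 arrays per group, and genes near the level of transcripts that were not there have no measured level. List medians that moved by over 1.5 times without single arrays included those for HIF targets, glycolysis, tip cells, VEGF, gliosis, cell cycle and matrix. Those for ganglion cells, immediate early genes, pigment epithelium and genes higher in OIR did so too, and the interferon median turned sign. The values are given with each list.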
